A study of Mus musculus with 8 samples.

Results

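Solute carriers are the membrane proteins that take most nutrients, ions, vitamins and metals across the plasma membrane and into organelles. Their genes carry the Slc prefix with a family number, and a family can hold carriers of different substrates. Their expression was described in the 2 luminal fractions of the mouse mammary gland. Members were chosen by their symbol in the RefSeq annotation, Slc followed by digits and further characters, and by their level. The level had to reach 1 CPM (the raw count per 1000000 counts of the library) in 4 or more of the 8 libraries. Of the 24594 genes listed, 381 had such a symbol and 232 of these passed the level rule, in 50 of 51 families, while 34 of the 381 had no count in any library. The rule read the level in all libraries together and not the difference between fractions. Still, 1 member, the zinc exporter Slc30a2, reached 1 CPM in the mature libraries alone, and none did so in the LP libraries alone. Others reached it in all 4 libraries of 1 fraction and in fewer of the other. Among them were Slc13a2 and Slc13a2os (4 LP and 2 mature libraries) and Slc16a3 (2 LP and 4 mature libraries). The members nearest to the limit on the inside were Slc46a2, Slc47a2 and Slc30a2, whose fourth-highest library stood at 1.09, 1.13 and 1.19 CPM. Just outside it stood Slc22a29 at 0.987 CPM and Slc16a13 and Slc4a10 at 0.929 CPM.

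Both fractions came from virgin wild type C57BL/6J mice without treatment, and the age range in the methods is 12 to 20 weeks. After removal of cells with the lineage markers TER-119, CD31 and CD45, luminal cells were sorted into luminal progenitors (LP, c-Kit high) and differentiated cells (c-Kit low), here called mature, with 4 libraries each. The labels name EpCAM, CD49f, c-Kit and CD14 as the sort markers, and the study describes the split of these fractions by c-Kit. The labels do not say whether a library is 1 mouse or a pool, so p-values measure the spread between these libraries. RNA of 500 pg per sample was amplified as cDNA and sequenced as single reads of 51 bp, and the libraries held between 4410049 and 7791593 counts on genes. Progenitor markers fixed for this description (Kit, Cd14, Elf5, Aldh1a3) summed to between 13574 and 20040 CPM in LP and between 244 and 966 CPM in mature libraries, and hormone-sensing markers (Pgr, Esr1, Prlr, Areg, Foxa1, Cited1) to between 307 and 997 CPM in LP and between 4370 and 6145 CPM in mature libraries. Kit and Cd14 encode sort markers, so their part of the progenitor sum is no independent check of the sort. Cd14 made up 12142 to 18322 CPM of the LP sums. Elf5 had 191 to 249 CPM in LP and 25.7 to 112 CPM in mature libraries. Aldh1a3 had 422 to 758 CPM in LP and 60.0 to 378 CPM in mature libraries. Prlr made up most of the hormone-sensing sum, with 223 to 822 CPM in LP and 3875 to 5442 CPM in mature libraries. The highest hormone-sensing sum of the LP libraries was in replicate 1, and the highest progenitor sum of the mature libraries was in replicate 3. Basal, endothelial, leukocyte and adipocyte marker sums were each at most 46.3 CPM, and the fibroblast sum reached 158 CPM in mature replicate 2, of which Dcn made up 154 CPM. The erythroid sum was highest in replicate 4 of both fractions, at 79.2 CPM in LP and 66.1 CPM in mature cells, against 1.87 to 6.97 CPM in the other LP and 6.04 to 29.3 CPM in the other mature libraries.

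In the mammary gland, mature luminal cells carry the receptors for oestrogen and progesterone, whereas progenitors give rise to the alveolar cells that secrete milk. Glucose, amino acids, iodide, zinc, phosphate and vitamins all enter milk through carriers, so many members have a known role in the lactating gland, while the cells measured here were from virgin animals. Epithelial carriers also depend on partners such as basigin (Bsg), the chaperone of the lactate carriers, and the WNK and SPAK kinases that set the activity of the chloride cotransporters.

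Regulatory sequence is shown for those of the 12 most changed called members in each direction (mean of at least 10 CPM, Slc12a2 left out) whose RefSeq promoter window (250 bases before to 50 after the transcription start, GRCm38.p6, the patch of mm10) held an exact match to a motif of a factor family that acts in these cells, the GATA family of Trps1 and Gata3 or the ETS family of Elf5. The GATA search took the letters GATA preceded by A or T and followed by A or G, on either strand, and the ETS search took CCGGAAG on either strand. Each sequence is written 5′ to 3′ on the strand of the gene, with the match in capitals and, for Slc44a4, as the reverse complement of the searched letters.
Slc25a38, ETS, + strand, chr9:120110325-120110354: acgctatgtcaCCGGAAGcgggatctcacc
Slc29a3, ETS, - strand, chr10:60752855-60752884: agtcggcaaacCCGGAAGcgctgaacgggg
Slc13a2os, GATA, + strand, chr11:78394280-78394309: tccttggctaggTGATAGaacaactggacc
Slc22a18, GATA, + strand, chr7:143473541-143473570: caacctggctccAGATAAgaatcagccctt
Slc44a4, GATA, + strand, chr17:34914240-34914269: tgcagtgtttccTTATCAaagtgctccggt
Such matches are common, and a match describes letters, not binding. Over all 32851 windows of the table, 29.8% held a GATA match and 8.86% an ETS match. Over the 12968 windows of tested genes these shares were 18.9% and 17.1%. Windows were given for 179 of the 232 members, too few for a share over the members to be read.

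Of the 232 members, 220 passed the filter on low counts and were tested with all other genes by edgeR's quasi-likelihood test, which is the source of every adjusted p-value below (Benjamini-Hochberg adjustment over 12816 tested genes, call at an adjusted p under 0.05). A log2 fold change is LP over mature, with its standard error (SE). The calls numbered 62 members, or 28.2% of those tested, beside 24.7% of all tested genes. Of these, 38 members (17.3%) were higher in LP, beside 10.9% of all genes, and 24 members (10.9%) were higher in mature cells, beside 13.8% of all genes. The share of members called was near the background, and more of the called members stood higher in LP, which is a description of the chosen list and not a test. The median log2 fold change was 0.03 over the members and 0.00 over all tested genes. Among the 180 members with at least 1 CPM in all 8 libraries, 33 were higher in LP and 23 in mature cells (31.1%, beside 24.7% of all tested genes). The share over all genes at this stricter limit was not computed. The libraries of the fractions did not overlap for 73 members (33.2% of those tested), beside 29.5% of all tested genes. The 12 members not tested (Slc2a5, Slc9a2, Slc9a9, Slc15a1, Slc15a3, Slc25a18, Slc25a43, Slc26a3, Slc29a2, Slc30a2, Slc46a2 and Slc47a2) were at most at 13.8 CPM in any library. Of the 62 called members, 58 did not overlap, and Slc48a1, Slc13a2, Slc16a3 and Slc44a4 did. The same share over all called genes was not computed. Of the called members, 36 stayed past the threshold in all of the 14 alternative fits that tested them, 21 higher in LP and 15 in mature cells. Without LP replicate 4 the members called higher in LP fell to 23, and those higher in mature cells to 17. Exon sequence was shared with another annotated gene in 61 members, over more than 25% of the exons in 10 of them. Fewer cells of a type and less RNA per cell cannot be told apart in these bulk libraries.

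**Figure D1:**
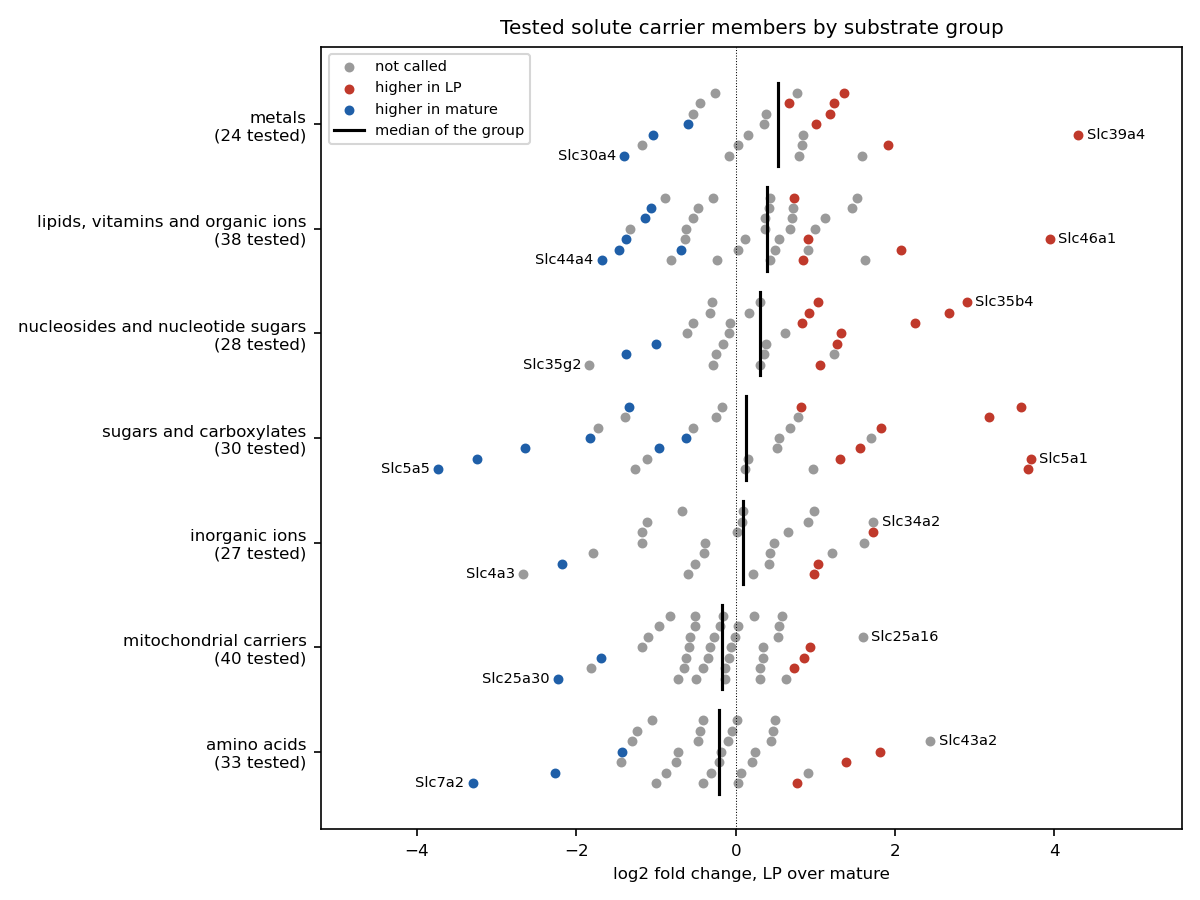
Log2 fold change (LP over mature, horizontal axis) of the 220 tested members in 7 substrate groups, each point being 1 gene (red, called higher in LP; blue, called higher in mature cells; grey, not called) and the black bar the median of the group. The sugar and carboxylate group spreads most widely, from Slc5a5 at -3.73 to Slc5a1 at 3.71. The mitochondrial and amino acid groups have median absolute log2 fold changes of 0.52 and 0.49, beside 0.55 over all tested genes.

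The members took a similar part of the RNA in the fractions, between 1.05% and 1.17% of the counts in LP and between 1.04% and 1.30% in mature libraries. Within that sum fewer carriers made up more of the mature libraries, where the 5 most counted members took between 33.3% and 48.5% of the member counts, against between 23.4% and 29.4% in LP. Levels between genes were compared as CPM per kilobase of exon, which was available for 230 members. On this scale the highest mean over the 8 libraries belonged to the adenine nucleotide exchanger Slc25a5, with 328 in LP and 361 in mature libraries, followed by the amino acid exchanger subunit Slc3a2 with 214 and 285. Next came the glucose carrier Slc2a1 with 62.9 and 393 and the sodium-potassium-chloride cotransporter Slc12a2 with 75.5 and 343 CPM per kilobase. By the mean of the mature libraries Slc2a1 was the most abundant member on this scale, and by the mean of LP it was Slc25a5. Slc2a1 had 1901 and 2223 CPM in mature replicates 1 and 2 but 536 and 466 CPM in replicates 3 and 4. Slc25a5 had 480 and 516 CPM in mature replicates 3 and 4, over 1240 bases of exon against 3260 for Slc2a1. Per kilobase Slc25a5 therefore stood above Slc2a1 in both. Most members were at low levels, with 82 of the 232 at a mean of 1 to 10 CPM and 120 at 10 to 100 CPM in LP, and only Slc2a1 and Slc12a2 above 1000 CPM, both in mature libraries.

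**Figure D2:**
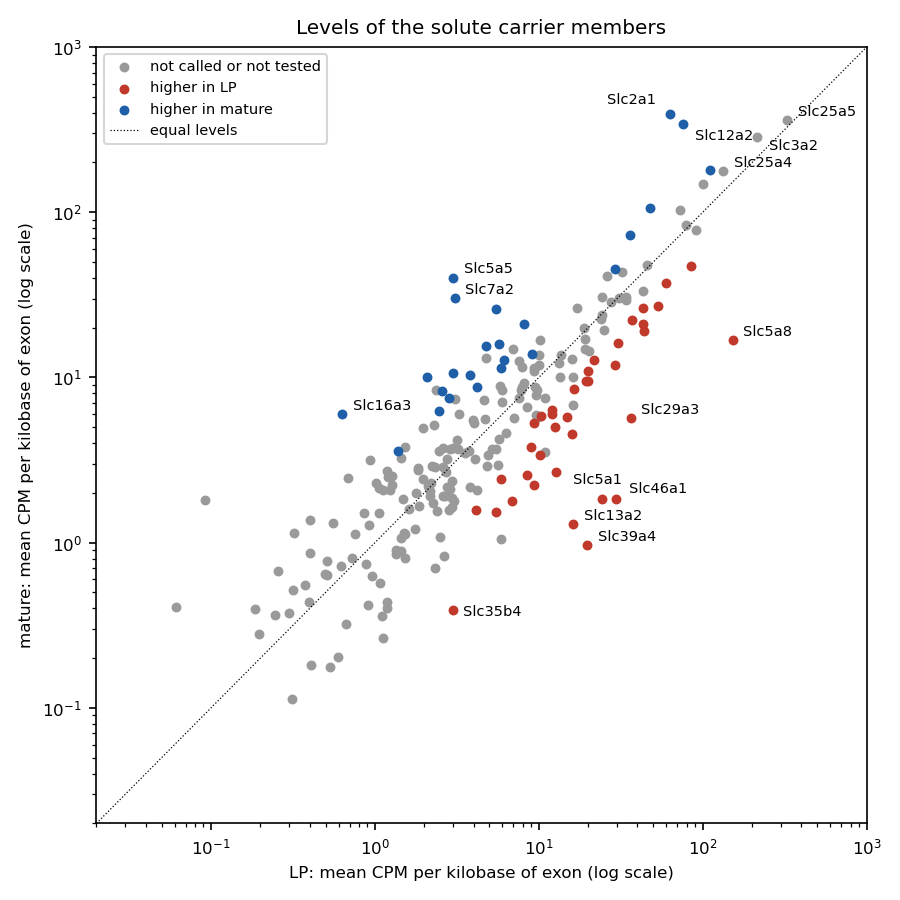
Mean level in LP (horizontal) against mature libraries (vertical), in CPM per kilobase of exon on log scales, for the 230 members with an exon length, coloured by call. Abundant members such as Slc25a5 and Slc3a2 lie near the dotted line of equal levels, while Slc2a1 and Slc12a2 stand above it and Slc5a8, Slc29a3, Slc46a1 and Slc39a4 below it.

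Members were assigned to 7 substrate groups by family number, so a group also holds relatives with other substrates. Families of sugar and carboxylate carriers held the largest share of calls. Of 30 tested members, 8 were higher in LP and 7 in mature cells (50%, beside 24.7% of all genes), with a median log2 fold change of 0.13, and the called genes included Slc5a5, Slc5a6 and Slc5a7, which carry iodide, vitamins and choline, and the non-coding Slc13a2os. The glucose carrier Slc2a1 (GLUT1, chromosome 4 from 119108745 to 119137330 of GRCm38), the main facilitative glucose carrier of the mammary epithelium, had 203, 145, 248 and 224 CPM in LP replicates 1 to 4 and 1901, 2223, 536 and 466 CPM in mature replicates 1 to 4. All mature libraries stood above all LP libraries, and mature replicates 1 and 2 far above mature replicates 3 and 4. The log2 fold change was -2.64 (SE 0.50, adjusted p = 0.00375), or 6.25-fold higher in mature cells. Slc2a3 (GLUT3), of the same family, had 23.2 ± 3.97 CPM (SD, n = 4) in LP against 45.2 ± 12.4 CPM (SD, n = 4) in mature libraries (log2 fold change -0.96, SE 0.24, adjusted p = 0.0166), a call that was lost without mature replicate 1 (adjusted p = 0.0513). Slc50a1 (SWEET1) had a log2 fold change of -0.62 (adjusted p = 0.0318), which was lost with each of 6 libraries left out in turn, with the filter removed and with the replicate block (adjusted p from 0.0503 to 0.0886).

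The sodium-coupled family 5 was called in both directions, with 4 of its 9 members higher in LP and 3 in mature cells (77.8%, beside 24.7% of all genes). The sodium/iodide symporter Slc5a5 (chromosome 8 from 70882885 to 70892785 of GRCm38), which concentrates iodide in the thyroid and the lactating breast, had 18.3, 9.63, 2.49 and 4.86 CPM in LP and 218, 74.3, 88.1 and 91.5 CPM in mature libraries. Every mature library was above every LP library, and mature replicate 1 stood well above the other three. It had the lowest log2 fold change of the called members (-3.73, SE 0.57, adjusted p = 0.00139), a level 13.3-fold higher in mature cells, and the log2 fold change was -4.36 without LP replicate 1. The vitamin carrier Slc5a6, which takes up biotin and pantothenate, had 14.96, 10.2, 11.1 and 9.43 CPM in LP and 59.3, 23.6, 23.7 and 55.6 CPM in mature libraries. For Slc5a6 the log2 fold change was -1.83 (SE 0.36, adjusted p = 0.00498). The myo-inositol carrier Slc5a3 was likewise higher in mature cells, with 27 ± 6.05 CPM (SD, n = 4) in LP against 68.6 ± 24.2 CPM (SD, n = 4) in mature libraries (log2 fold change -1.34, adjusted p = 0.00570).

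On the LP side of the same family stood the sodium-coupled monocarboxylate carrier Slc5a8 and the sodium-glucose cotransporters Slc5a1 and Slc5a2. Slc5a9 and Slc5a10 were not called. Slc5a8 (chromosome 10 from 88885992 to 88929515 of GRCm38), which takes up lactate, pyruvate and short-chain fatty acids, had 764, 688, 881 and 909 CPM in LP and 30.9, 93.5, 155 and 79.7 CPM in mature libraries. The lowest LP library lay above the highest mature library, which was replicate 3, and the log2 fold change was 3.18 (SE 0.40, adjusted p = 0.000606). Slc5a8 had the highest mean CPM of the members in LP, although in LP replicate 1 Slc12a2 stood above it at 1062 CPM. Slc5a1 (SGLT1, chromosome 5 from 33104219 to 33162699 of GRCm38), the high-affinity glucose cotransporter of the gut, had 74.2, 107, 97.4 and 120.1 CPM in LP and 2.67, 5.52, 8.81 and 13.3 CPM in mature libraries, a level 13.1-fold higher in LP. For Slc5a1 the log2 fold change was 3.71 (SE 0.41, adjusted p = 0.000392). Slc5a2 (SGLT2), the kidney paralogue, was lower in both fractions, with 12.1, 10.8, 12.6 and 14.6 CPM in LP and 5.20, 2.10, 3.61 and 3.01 CPM in mature libraries. For Slc5a2 the log2 fold change was 1.82 (SE 0.40, adjusted p = 0.00801). Of its exons, 26.2% overlap those of another gene on the opposite strand, and the sources do not say whether reads were counted by strand. The choline carrier Slc5a7 had a log2 fold change of 1.56 (SE 0.46, adjusted p = 0.0318), and its call was lost with each of 6 of the 8 libraries left out in turn (adjusted p up to 0.0869, without LP replicate 2).

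**Figure D3:**
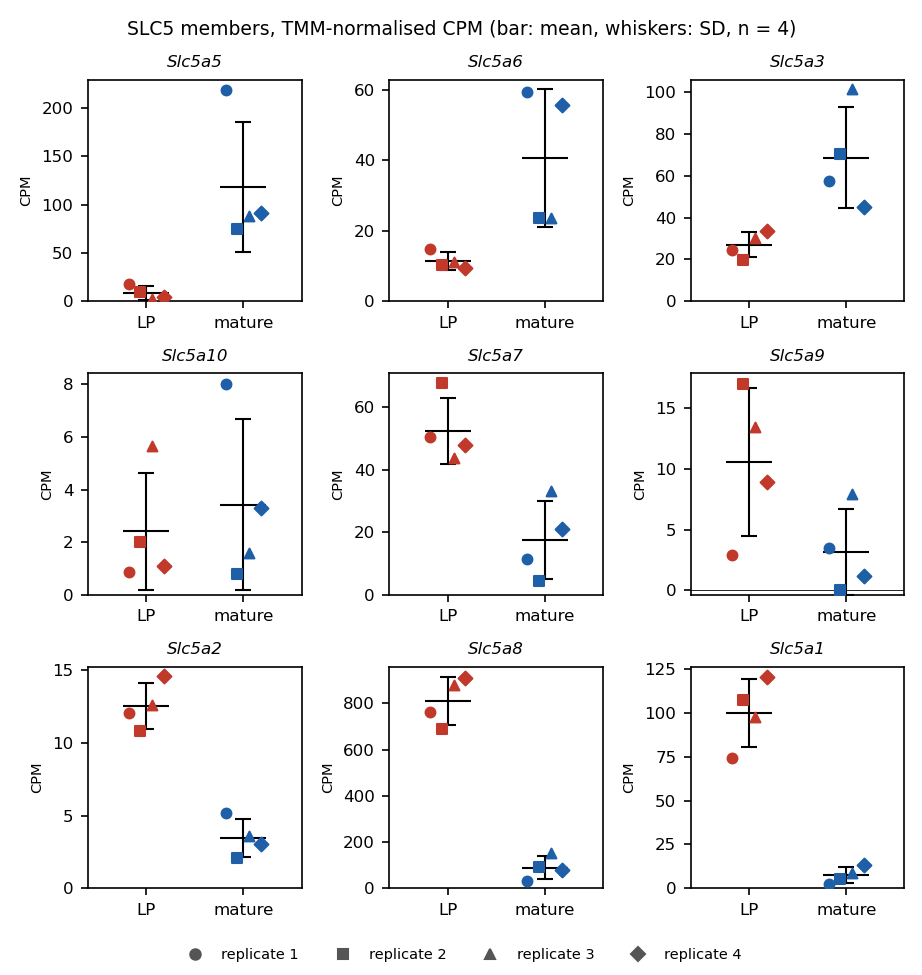
TMM-normalised CPM of the 9 members of family 5 in the 4 LP (red) and 4 mature (blue) libraries, with the marker shape giving the replicate and the bar and whiskers the mean and SD (each panel has its own linear scale). Slc5a5, Slc5a6 and Slc5a3 are above in every mature library and Slc5a7, Slc5a2, Slc5a8 and Slc5a1 in every LP library, while Slc5a10 and Slc5a9 overlap.

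In the monocarboxylate family 16, whose lactate carriers need basigin at the cell surface, the lactate exporter Slc16a3 (MCT4) had 4.07, 0.288, 6.64 and 0.277 CPM in LP and 37.97, 32.05, 31.9 and 4.67 CPM in mature libraries. Mature replicate 4 fell within the LP range, while the other mature libraries stood above it. The log2 fold change was -3.25 (SE 0.93, adjusted p = 0.0264), and the call was lost without LP replicate 1, 2 or 4 or mature replicate 1 or 2 (adjusted p from 0.0528 to 0.0627). The lactate carrier Slc16a1 (MCT1) had 43.9 ± 7.53 CPM (SD, n = 4) in LP against 25.4 ± 11.7 CPM (SD, n = 4) in mature libraries and was not called. For Slc16a1 the log2 fold change was 0.79 (SE 0.32, adjusted p = 0.101). Basigin itself had 1556, 1620.5, 1814 and 1555 CPM in LP and 4465, 5696, 2263 and 2012 CPM in mature libraries (log2 fold change -1.14, SE 0.32, adjusted p = 0.0251), with mature replicates 1 and 2 highest as for Slc2a1. The sodium-dicarboxylate cotransporter Slc13a2, which takes up citrate and succinate, had 10.3, 20.8, 71.9 and 53.8 CPM in LP and 0, 0, 10.4 and 2.11 CPM in mature libraries. A count of 0 allows up to 0.422 CPM in mature replicate 1 and 0.788 CPM in mature replicate 2. The highest mature library, replicate 3, was at the level of the lowest LP library, replicate 1, and the log2 fold change of 3.58 (SE 1.09, adjusted p = 0.0345) rose to 5.65 without mature replicate 3. Its call was lost with DESeq2 (adjusted p = 0.0815) and without LP replicate 2, 3 or 4 or mature replicate 1, 2 or 4 (adjusted p from 0.0511 to 0.0966). The antisense transcript Slc13a2os, which matched the symbol rule and covers 26.2% of the exons of Slc13a2, had 7.70, 16.2, 52.8 and 43.98 CPM in LP and 0, 0, 7.22 and 1.81 CPM in mature libraries, and reads of this pair cannot be told apart without knowledge of the strand. Its call (log2 fold change 3.66, SE 1.07, adjusted p = 0.0291) was lost with DESeq2 and without LP replicate 3 or 4 or mature replicate 2 or 4 (adjusted p from 0.0546 to 0.0821), and the log2 fold change was 5.49 without mature replicate 3.

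Metal carriers had 7 members higher in LP and 3 in mature cells among 24 tested (41.7%, beside 24.7% of all genes), with a median log2 fold change of 0.53. Zinc enters the cytosol through family 39 (ZIP) and leaves it through family 30 (ZnT), and each family had calls in both directions. Slc39a4 (ZIP4, chromosome 15 from 76612383 to 76618506 of GRCm38), the zinc importer of the intestine, had 24.4, 29.8, 82.01 and 82.4 CPM in LP and 0.844, 1.05, 5.77 and 3.01 CPM in mature libraries. The libraries did not overlap, LP replicates 3 and 4 stood above LP replicates 1 and 2, and mature replicate 3 was the highest of its fraction. This was the highest log2 fold change of the called members, 4.30 (SE 0.64, adjusted p = 0.00124), and it was 5.03 without mature replicate 3. Slc39a14 (ZIP14), which also carries iron, had 22.7, 40.97, 41.5 and 37.04 CPM in LP and 8.16, 2.10, 15.3 and 11.6 CPM in mature libraries. For Slc39a14 the log2 fold change was 1.91 (SE 0.47, adjusted p = 0.0134). In the other direction Slc39a6 (ZIP6, LIV-1), known as an oestrogen-responsive gene of breast cancer, had 33.5, 13.2, 28.6 and 20.3 CPM in LP and 38.1, 49.4, 68.3 and 41.1 CPM in mature libraries. Expressed as LP over mature, the log2 fold change was -1.04 (SE 0.31, adjusted p = 0.0305), and the call was lost without LP replicate 2 or 4, without mature replicate 2 or 3 and with no filter (adjusted p from 0.0530 to 0.0826). The most abundant zinc carrier per kilobase, Slc39a7 of the endoplasmic reticulum, was not called, at 187 ± 10.7 CPM (SD, n = 4) in LP against 199 ± 31.7 CPM (SD, n = 4) in mature libraries (log2 fold change -0.09, SE 0.15, adjusted p = 0.726), and 84.5% of its exons overlap another annotated gene on the same strand.

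Among the zinc exporters, Slc30a4 (ZnT4), whose loss in the lethal milk mouse leaves milk short of zinc, had 11.6, 18.8, 19.4 and 12.6 CPM in LP and 38.2, 69.3, 19.6 and 38.3 CPM in mature libraries. The lowest mature library, replicate 3, was only just above the highest LP library. The log2 fold change was -1.40 (SE 0.37, adjusted p = 0.0183), and the call was lost without LP replicate 1 or 4 or mature replicate 2 (adjusted p from 0.0547 to 0.0556). Slc30a2 (ZnT2), the exporter that loads zinc into milk vesicles, had 0.726, 0, 0.166 and 0.416 CPM in LP and 13.8, 8.93, 2.02 and 1.21 CPM in mature libraries and was not tested because of its low counts, and since it entered the list through the mature libraries alone its values are a description. Slc30a1 (ZnT1) did not overlap, with 8.28, 3.16, 5.48 and 4.30 CPM in LP and 13.4, 12.3, 13.4 and 9.04 CPM in mature libraries, but missed the threshold. For Slc30a1 the log2 fold change was -1.18 (SE 0.40, adjusted p = 0.0544). Slc30a6, a carrier of the secretory pathway, was higher in LP (1.01, adjusted p = 0.0495), and its call was lost without any 1 of the LP libraries and without mature replicate 3 or 4 (adjusted p from 0.0687 to 0.105). The zinc-binding metallothioneins, listed as partners of these carriers, were higher in mature cells. Mt1 had 286, 188, 198 and 222 CPM in LP and 2869, 2586, 667 and 1847 CPM in mature libraries (log2 fold change -3.15, SE 0.40, adjusted p = 0.000644), and Mt2 had a log2 fold change of -3.78 (SE 0.45, adjusted p = 0.000479).

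Of the carriers of iron, copper and heme, Slc40a1, Slc31a2 and Slc48a1 were higher in LP. The iron exporter Slc40a1 (ferroportin) had 48.4, 27.5, 54.6 and 68.7 CPM in LP and 20.95, 13.4, 21.4 and 21.8 CPM in mature libraries. For Slc40a1 the log2 fold change was 1.35 (SE 0.29, adjusted p = 0.00764). The iron importer Slc11a2 (DMT1) was also above in every LP library, 18.01, 13.5, 14.6 and 21.2 against 9.84, 6.30, 11.1 and 10.2 CPM, and missed the threshold. For Slc11a2 the log2 fold change was 0.84 (SE 0.31, adjusted p = 0.0759). The copper carrier Slc31a2 had 90.8, 98.9, 73.7 and 91.3 CPM in LP and 52.9, 29.9, 26.6 and 45.96 CPM in mature libraries. For Slc31a2 the log2 fold change was 1.19 (SE 0.24, adjusted p = 0.00501). The copper importer Slc31a1 was not called, at 137 ± 12.8 CPM (SD, n = 4) in LP against 187 ± 35.7 CPM (SD, n = 4) in mature libraries (log2 fold change -0.44, SE 0.17, adjusted p = 0.0880). The heme carrier Slc48a1 was higher in LP by a log2 fold change of 0.67 (adjusted p = 0.0264) with overlapping libraries, a call lost without LP replicate 1, 3 or 4 or mature replicate 2 or 4 (adjusted p from 0.0517 to 0.0787). Hephaestin (Heph), the ferroxidase that works with ferroportin, moved the other way, with 58.9 ± 8.003 CPM (SD, n = 4) in LP against 96.1 ± 23.6 CPM (SD, n = 4) in mature libraries (log2 fold change -0.71, SE 0.21, adjusted p = 0.0293).

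**Figure D4:**
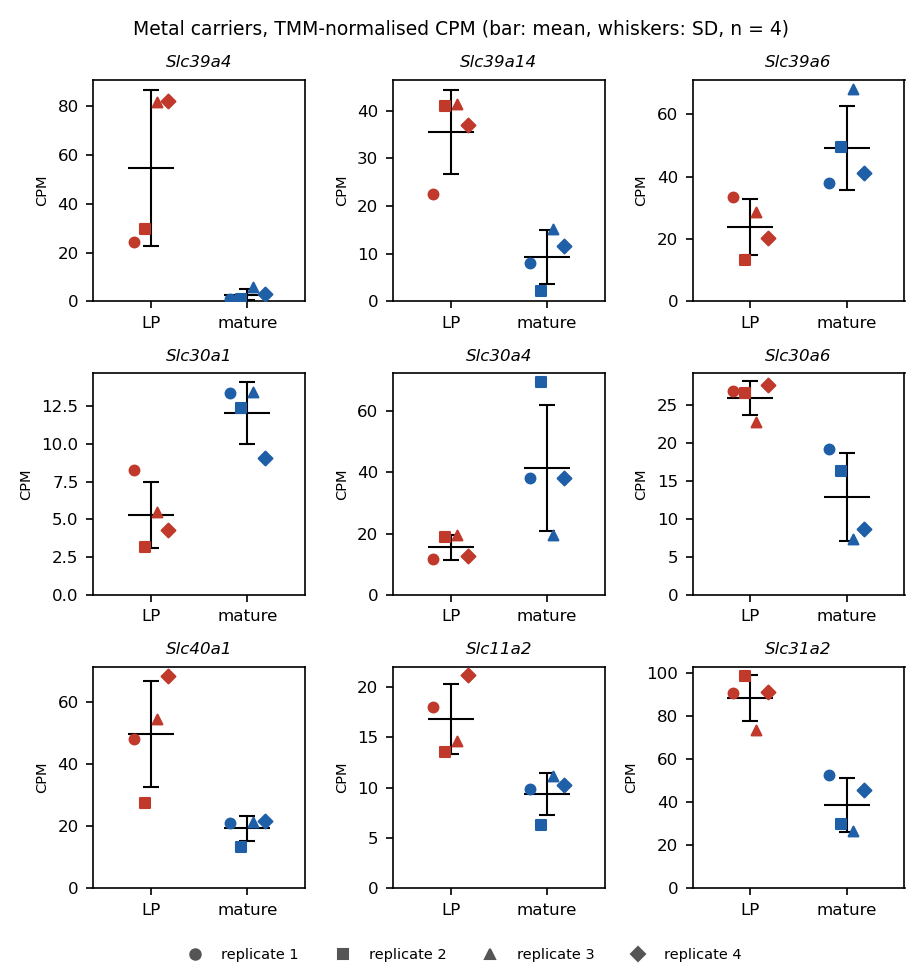
TMM-normalised CPM of 9 metal carriers in the LP (red) and mature (blue) libraries, with marker shapes for replicates 1 to 4 and the bar and whiskers for the mean and SD (linear scale from 0, own range in each panel). Slc39a4, Slc39a14, Slc40a1 and Slc31a2 are higher in every LP library and Slc39a6, Slc30a1 and Slc30a4 in every mature library. Slc30a1 and Slc11a2 do not overlap and yet were not called.

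Among 33 tested members of the amino acid carrier families, 3 were higher in LP and 3 in mature cells (18.2%, beside 24.7% of all genes), and the median log2 fold change was -0.21. The cationic carrier Slc7a2 (CAT2, chromosome 8 from 40862341 to 40922070 of GRCm38), which imports arginine and lysine, had 39.6, 13.7, 28.7 and 24 CPM in LP and 275, 214, 219 and 336 CPM in mature libraries. The fractions were far apart, and the log2 fold change of -3.30 (SE 0.31, adjusted p = 0.000218) had the lowest adjusted p of all members. The glutamine carrier Slc38a1 (SNAT1) had 38.6, 24.01, 13.4 and 13.7 CPM in LP and 111, 84.8, 84.7 and 153 CPM in mature libraries. For Slc38a1 the log2 fold change was -2.27 (SE 0.36, adjusted p = 0.00160). Its relative Slc38a2 was not called, at 35.2 ± 8.03 CPM (SD, n = 4) in LP against 58.9 ± 21.2 CPM (SD, n = 4) in mature libraries. The adjusted p of Slc38a2 was 0.0789. The taurine carrier Slc6a6 had 33.98, 25.01, 21.1 and 14.3 CPM in LP and 67.4, 79.6, 69.6 and 38.7 CPM in mature libraries. For Slc6a6 the log2 fold change was -1.43 (SE 0.30, adjusted p = 0.00653). In family 6 the creatine carrier Slc6a8 was higher in LP, with 14.96, 23.1, 16.4 and 11.1 CPM against 10.4, 5.52, 3.32 and 5.73 CPM (log2 fold change 1.39, adjusted p = 0.0332), a call lost without LP replicate 1, 2 or 3 or mature replicate 2, 3 or 4 and with the replicate block (adjusted p from 0.0524 to 0.109). The neutral amino acid carrier Slc1a4 (ASCT1) had 36.6, 36.7, 88.2 and 88.1 CPM in LP and 27.4, 25.5, 11.3 and 7.38 CPM in mature libraries. LP replicates 3 and 4 were the high ones, and the call (log2 fold change 1.81, SE 0.47, adjusted p = 0.0171) was lost without LP replicate 4 (adjusted p = 0.0519) and with the replicate block (adjusted p = 0.0595).

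Several well-known carriers of this group were not called between the fractions. The exchanger subunit Slc3a2 had 646 ± 61.1 CPM (SD, n = 4) in LP against 862 ± 167 CPM (SD, n = 4) in mature libraries. The adjusted p of Slc3a2 was 0.122. Its light chain Slc7a5 (LAT1) spread widely within mature cells, with 9.29, 15.96, 26.1 and 15.95 CPM in LP and 56.1, 89.8, 29.6 and 8.29 CPM in mature libraries. For Slc7a5 the log2 fold change was -1.44 (SE 0.58, adjusted p = 0.0973), and it passed the threshold in 3 of 14 alternative fits, with DESeq2 (adjusted p = 0.0365), the likelihood ratio test (0.0470) and without mature replicate 4 (0.0160). The cystine carrier Slc7a11 and the glutamine carrier Slc1a5 had log2 fold changes of 0.45 (SE 0.30, adjusted p = 0.302) and 0.49 (SE 0.39, adjusted p = 0.394). The glutamate carrier Slc1a1 was at 129 ± 19.9 CPM (SD, n = 4) in LP against 112 ± 28.2 CPM (SD, n = 4) in mature libraries. The adjusted p of Slc1a1 was 0.501, and 32% of its exons overlap 4430402I18Rik on the opposite strand. A p above the threshold does not show that these levels were equal.

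In the families of inorganic ion carriers, 3 genes were higher in LP and 1 in mature cells among 27 tested (14.8%, beside 24.7% of all genes). One of the former, Slc9a3r1, is not a carrier, and the last was an abundant gene. Slc12a2 (NKCC1), the basolateral chloride loader of secretory epithelia, had 1062, 432, 242 and 233 CPM in LP and 2924, 2538, 1093 and 2396 CPM in mature libraries. LP replicate 1 was at the level of mature replicate 3, just below it, and those are the LP and mature libraries with the highest marker sums of the other fraction. The log2 fold change was -2.19 (SE 0.50, adjusted p = 0.0100), and it was -2.89 without LP replicate 1 (adjusted p = 0.00214). Of the kinases that act on this carrier, Wnk4 was low and higher in mature cells (log2 fold change -3.48, SE 0.98, adjusted p = 0.0248), Stk39 (SPAK) was higher in LP (108 ± 36.8 CPM (SD, n = 4) against 47.3 ± 20.01 CPM (SD, n = 4), adjusted p = 0.0320), and Wnk1 and Oxsr1 were not called (adjusted p = 0.760 and 0.281). The sulfate carrier Slc26a2 had 61.9, 58.9, 88.3 and 69.6 CPM in LP and 14.9, 17.1, 29.4 and 23.1 CPM in mature libraries. For Slc26a2 the log2 fold change was 1.72 (SE 0.25, adjusted p = 0.00112). Slc26a10 was higher in LP as well (log2 fold change 1.04, adjusted p = 0.00981), and 22.8% of its exons overlap B4galnt1 on the opposite strand. Phosphate carriers were not called. Slc20a1, Slc20a2 and Slc34a2 had log2 fold changes of -1.17 (SE 0.73), 0.91 (SE 0.43) and 1.73 (SE 1.06), and Slc34a2, at 0.281, 5.25, 0.144 and 0.301 CPM in mature libraries, passed the threshold without mature replicate 2 (log2 fold change 4.17, adjusted p = 0.0112). Of the 4 protein-coding genes whose symbols fit the rule but which encode no transporter, the scaffold Slc9a3r1 (NHERF1) was higher in LP (103 ± 22.6 CPM (SD, n = 4) against 51.8 ± 16.7 CPM (SD, n = 4), log2 fold change 0.98, SE 0.25, adjusted p = 0.0161), and Slc9a3r2, Slc4a1ap and Slc7a6os were not called (adjusted p = 0.800, 0.274 and 0.363).

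Nucleoside and nucleotide sugar carriers had 9 members higher in LP and 2 in mature cells among 28 tested (39.3%, beside 24.7% of all genes), with a median log2 fold change of 0.30. Slc29a3 (ENT3, chromosome 10 from 60712072 to 60752849 of GRCm38), the lysosomal nucleoside carrier whose ETS-motif window is printed above, had 187, 159, 178 and 237 CPM in LP and 19.1, 23.9, 53.6 and 22.6 CPM in mature libraries. Mature replicate 3 stood apart from the other mature libraries and still far below LP. For Slc29a3 the log2 fold change was 2.67 (SE 0.32, adjusted p = 0.000479). The concentrative nucleoside carrier Slc28a3 (CNT3) had 50.8, 54.5, 68.6 and 58.96 CPM in LP and 6.75, 11.3, 13.3 and 17.3 CPM in mature libraries. For Slc28a3 the log2 fold change was 2.26 (SE 0.28, adjusted p = 0.000587). The plasma membrane carrier Slc29a1 (ENT1), in contrast, had 121 ± 14.2 CPM (SD, n = 4) in LP against 126 ± 34.7 CPM (SD, n = 4) in mature libraries. For Slc29a1 the log2 fold change was -0.07 (SE 0.21, adjusted p = 0.841). Family 35 includes the carriers that take nucleotide sugars into the Golgi for glycosylation. Of its 23 members, 6 were higher in LP and 2 in mature cells (34.8%, beside 24.7% of all genes). Among the former were the carriers of GDP-fucose Slc35c1 (65.3 ± 4.85 CPM (SD, n = 4) against 31.3 ± 3.73 CPM (SD, n = 4), log2 fold change 1.06, adjusted p = 0.00160) and of UDP-xylose and UDP-N-acetylglucosamine Slc35b4. The latter had 26.1, 7.48, 23.6 and 17.6 CPM in LP and 3.09, 1.84, 4.91 and 0 CPM in mature libraries, and its call (log2 fold change 2.90, SE 0.81, adjusted p = 0.0243) was lost without LP replicate 1, 3 or 4 or mature replicate 2 (adjusted p from 0.0519 to 0.0687). Slc35a4, Slc35e2 and Slc35e4 had log2 fold changes of 1.04, 1.27 and 1.32 (adjusted p = 0.00358, 0.00382 and 0.00367). The CMP-sialic acid carrier Slc35a1 had a log2 fold change of 0.92 (adjusted p = 0.0304), and its call was lost without LP replicate 1 or 2 or mature replicate 1 or 3 (adjusted p from 0.0568 to 0.0920). The members Slc35f3 and Slc35f5 stood higher in mature cells, by -1.38 (adjusted p = 0.00462) and -1.01. The adjusted p of Slc35f5 was 0.00960. The UDP-galactose carrier Slc35a2, which lactose synthesis needs in the Golgi, was not called. For Slc35a2 the log2 fold change was 0.17 (SE 0.39, adjusted p = 0.791).

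**Figure D5:**
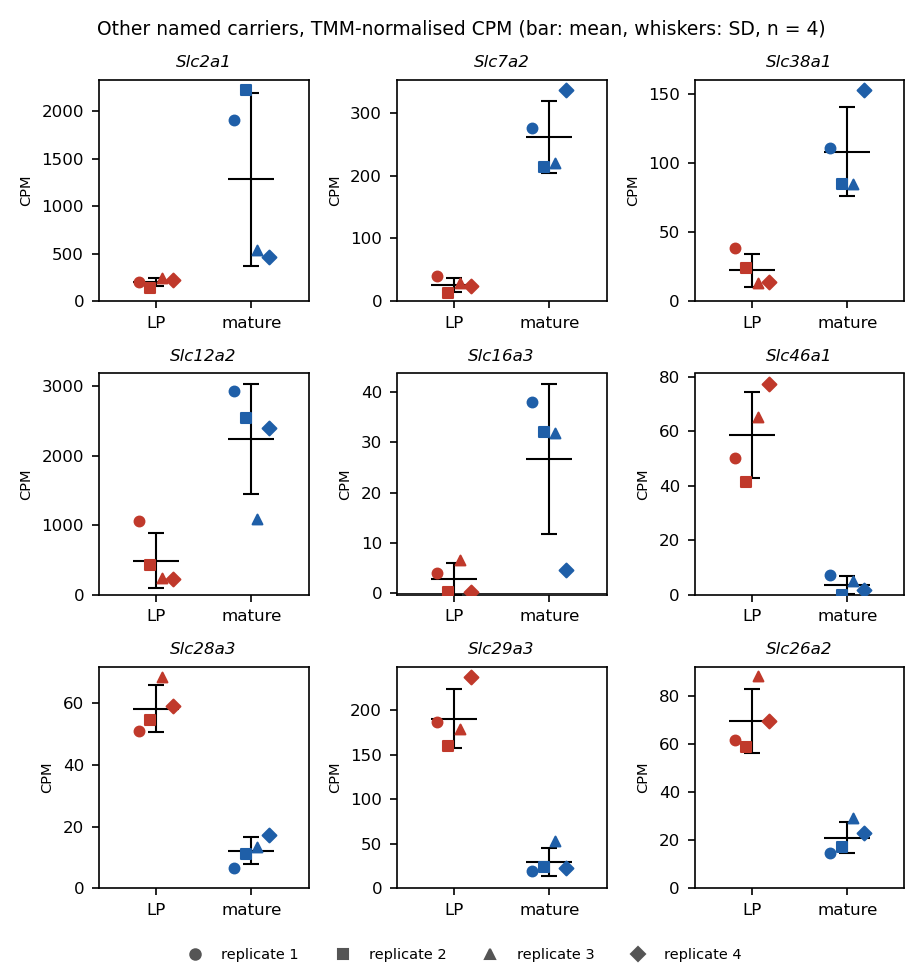
TMM-normalised CPM of 9 further carriers in LP (red) and mature (blue) libraries, drawn as in the other panels of libraries, with marker shapes for replicates 1 to 4 and the bar and whiskers for the mean and SD. Slc2a1, Slc7a2, Slc38a1 and Slc12a2 are higher in every mature library, Slc46a1, Slc28a3, Slc29a3 and Slc26a2 in every LP library, and in Slc16a3 mature replicate 4 falls among the LP libraries.

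Carriers of lipids, vitamins and organic ions had 5 members higher in LP and 6 in mature cells among 38 tested (28.9%, beside 24.7% of all genes). The folate carrier Slc46a1 (PCFT, chromosome 11 from 78465701 to 78471945 of GRCm38) had 50.4, 41.5, 65.2 and 77.4 CPM in LP and 7.45, 0, 5.20 and 1.81 CPM in mature libraries. Every LP library was above every mature library, and the log2 fold change of 3.94 (SE 0.65, adjusted p = 0.00212) was 4.53 without mature replicate 1. The span of this gene overlaps that of Sarm1 with no annotated exon shared. Both thiamine carriers were higher in mature cells, Slc19a2 with 15.8, 15.7, 14.1 and 14.2 CPM in LP and 45.7, 18.6, 31.04 and 29.7 CPM in mature libraries (log2 fold change -1.07, adjusted p = 0.0197) and Slc19a3 with 4.07, 5.32, 3.98 and 3.05 CPM and 9, 11.6, 8.66 and 13.4 CPM (log2 fold change -1.37, adjusted p = 0.0251). Neither call was firm, since that of Slc19a2 was lost without LP replicate 4 or mature replicate 1 (adjusted p = 0.0522 and 0.0674) and that of Slc19a3 without LP replicate 1, 3 or 4, without mature replicate 2 or 4 and with the replicate block (adjusted p from 0.0540 to 0.0692). Family 44, which includes choline carriers, had calls in opposite directions. Slc44a1 had 219.7, 199, 229 and 339.8 CPM in LP and 137, 118, 148 and 189 CPM in mature libraries (log2 fold change 0.74, adjusted p = 0.0271), lost without LP replicate 4 or mature replicate 1 or 2 (adjusted p from 0.0635 to 0.0762). Slc44a4 had 12.6, 2.59, 4.48 and 6.10 CPM in LP and 19.7, 24.4, 11.8 and 27.3 CPM in mature libraries (log2 fold change -1.68, adjusted p = 0.0281), with LP replicate 1 above mature replicate 3, and it was lost without LP replicate 2, 3 or 4 or mature replicate 1, 2 or 4 (adjusted p from 0.0517 to 0.0727).

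In the same group, the vitamin C carrier Slc23a1 was the most abundant member per kilobase, with 319, 383, 294 and 349 CPM in LP and 596, 624, 472 and 478 CPM in mature libraries. For Slc23a1 the log2 fold change was -0.69 (SE 0.17, adjusted p = 0.0127). Its span overlaps that of Paip2 with no annotated exon shared. Family 22, of organic cations and anions, had calls in both directions. Slc22a27 had 96.1, 101, 116 and 99.2 CPM in LP and 180.0, 217, 262 and 252 CPM in mature libraries (log2 fold change -1.14, SE 0.16, adjusted p = 0.000988), and its span overlaps the predicted gene Gm6192. Slc22a18, from the imprinted region of chromosome 7, had 6.53, 9.20, 9.96 and 12.5 CPM in LP and 22.8, 39.1, 13.3 and 30.6 CPM in mature libraries. For Slc22a18 the log2 fold change was -1.46 (SE 0.37, adjusted p = 0.0154). Slc22a14, best known from sperm, was higher in LP, with 179, 166, 215 and 201 CPM against 90, 89.04, 91.1 and 153 CPM, mature replicate 4 standing above the other mature libraries. For Slc22a14 the log2 fold change was 0.85 (SE 0.20, adjusted p = 0.0128). Slc10a3 had 20.2, 28.3, 10.96 and 16.1 CPM in LP and 5.48, 5.52, 1.30 and 5.73 CPM in mature libraries. For Slc10a3 the log2 fold change was 2.07 (SE 0.50, adjusted p = 0.0123).

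Carriers of the inner mitochondrial membrane, family 25, formed the largest family, with 42 members, and were the least often called group, with 3 members higher in LP and 2 in mature cells among 40 tested (12.5%, beside the 24.7% of all genes) and a median log2 fold change of -0.18. The adenine nucleotide exchangers Slc25a4 and Slc25a5 were abundant in every library. Slc25a4 had 265, 238, 260.3 and 264 CPM in LP and 296, 328, 363 and 375 CPM in mature libraries and, although the libraries did not overlap, missed the threshold (log2 fold change -0.41, SE 0.14, adjusted p = 0.0608), and Slc25a5 had a log2 fold change of -0.14 (SE 0.15, adjusted p = 0.552). The citrate carrier Slc25a1, which supplies fatty acid synthesis, was at 51.4 ± 13.4 CPM (SD, n = 4) in LP against 50.3 ± 4.42 CPM (SD, n = 4) in mature libraries, with an adjusted p of 0.933. Higher in mature cells were Slc25a30, with 23.8, 18.5, 18.9 and 17.9 CPM in LP and 99.98, 115, 56.3 and 103 CPM in mature libraries (log2 fold change -2.24, SE 0.24, adjusted p = 0.000326), and Slc25a38, which brings in glycine for heme synthesis, with 6.82, 9.92, 10.8 and 6.52 CPM and 19.97, 24.2, 50.2 and 15.97 CPM. For Slc25a38 the log2 fold change was -1.70 (SE 0.40, adjusted p = 0.0110). The members higher in LP were the dicarboxylate carrier Slc25a10, the oxoglutarate carrier Slc25a11 and the aspartate/glutamate carrier Slc25a13, with log2 fold changes of 0.94, 0.73 and 0.86 (adjusted p = 0.0204, 0.0263 and 0.0179). The call of Slc25a10 was lost without LP replicate 3 or 4 (adjusted p = 0.0558 and 0.0567) and that of Slc25a11 without LP replicate 2 or 4 or mature replicate 2 (adjusted p from 0.0523 to 0.0810).

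A further 6 called members were chosen for mention after their values were seen. Slc33a1, Slc37a3, Slc41a1, Slc66a2 and Slc10a7 had log2 fold changes between 0.77 and 1.23, and Slc30a7 had one of -0.60. The adjusted p of Slc30a7 was 0.0419. All of these calls were lost with some libraries left out. The call of Slc33a1 was lost without any 1 of the libraries but mature replicate 2 (adjusted p from 0.0562 to 0.116), that of Slc37a3 without LP replicate 2, 3 or 4 or mature replicate 1, 2 or 4 (0.0562 to 0.109), and that of Slc41a1, which carries magnesium, without any 1 of the LP libraries or mature replicate 2 or 4 (0.0611 to 0.0830). For Slc66a2 it was lost without any 1 of the LP libraries or mature replicate 2 (0.0509 to 0.0542), for Slc10a7 without LP replicate 2 or 4 or mature replicate 1 or 2 and with the replicate block (0.0515 to 0.0842), and for Slc30a7 without any 1 of the LP libraries, without mature replicate 1 or 2 and with no filter (0.0705 to 0.120). Of 32 carriers fixed as having a known role in epithelia or milk, 31 were members, 30 were tested, 3 were higher in LP and 10 in mature cells (43.3%, beside 24.7% of all genes), and the median log2 fold change was -0.41. This list was chosen with earlier results of these data known. LP replicate 1, with the highest hormone-sensing marker sum of its fraction, was the highest LP library for 12 of the 24 members higher in mature cells. Mature replicate 3, with the highest progenitor marker sum of its fraction, was the highest mature library for 13 of the 38 members higher in LP, about as many as mature replicates 4 and 1 with 12 and 11. Their part in the results was not tested, and without LP replicate 1 the calls numbered 29 higher in LP and 22 in mature cells, and without mature replicate 3 they numbered 39 and 27.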

How the data were processed

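Per the labels and the study's methods, reads were trimmed with cutadapt 4.2 and aligned to mm10 with Bowtie2 (2.3.5.1 in the submitters' processing notes, 2.2.9 in the methods), and the authors deposited raw counts per gene by Entrez Gene ID, as whole numbers without normalization. The counting program, its annotation and its use of strand are not given in the sources used here. Of 24594 IDs, 24570 matched the RefSeq table of GRCm38.p6. The study's methods state 3 replicates per condition for RNA sequencing, and all 8 libraries, 4 LP and 4 mature, were used. Counts were analysed with edgeR 4.0.16 in R 4.3.3, with TMM factors, filterByExpr grouped by fraction (12816 genes) and the quasi-likelihood F-test, called at an adjusted p under 0.05, and the SE of a log2 fold change is its size over the square root of F. Printed CPM are TMM-normalised without an added count, while membership used raw library totals. CPM per kilobase used the exon union of GENCODE vM21. The floor for a count of 0 is 3 counts per library and covers counting error only. Same-numbered libraries correlated, after subtraction of fraction means, by 0.113, 0.0618, 0.148 and 0.0844 across genes, and the other pairs by -0.156 to 0.0779. The main fit did not use the number as pairing because the sources used here state no pairing. The replicate block is therefore given as an alternative. Same-numbered LP and mature libraries also share a number in their descriptions, and whether it stands for an animal is not given in the sources used here. Replicates of a fraction differed by more than counting noise (chi-square per degree of freedom from 11.9 to 89.0). The script was tested on simulated data. Members and lists were chosen with earlier results of these data known. Named were the 12 most changed called members in each direction with a mean of at least 10 CPM, the fixed epithelial carriers, the 2 most abundant members of each substrate group, the most changed called members of families with calls in both directions, the members at the limit, and symbols of genes that encode no transporter. Other called members are named because they were called, after their values were seen, and some genes are not reported here. The alternatives were RLE factors, DESeq2 1.42.0, the edgeR likelihood ratio test, a replicate block, each library left out, no filter, a minimum of 10 counts in all libraries, and members at 5 CPM in 4 libraries or 1 CPM in all 8. Figures were drawn with matplotlib 3.10.9.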

Additional observations from a re-analysis of the deposited data

Results flagged for a closer look

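In 132 groups of 4 libraries, each named member with 1 fraction, 11 held a library set apart from the others by more than Dixon's 95% limit, where chance gives about 6.6. In mature cells, Slc5a5 was high in replicate 1 at 217.7 CPM, against 74.3 to 91.5 CPM in the others. Slc22a14 was high in mature replicate 4 at 152.9 CPM, against 89.0 to 91.1 CPM, and Slc29a3 in mature replicate 3 at 53.56 CPM, against 19.1 to 23.9 CPM. Slc34a2 stood at 5.253 CPM in mature replicate 2, against 0.144 to 0.301 CPM in the other mature libraries. Slc46a2 stood at 2.743 CPM in mature replicate 3 and at 9.156 CPM in LP replicate 4, against at most 0.263 and 1.74 CPM in the others of each fraction. Lower than the rest of the mature libraries were Slc25a1 in replicate 3 at 43.74 CPM, against 51.98 to 52.87 CPM, Slc40a1 in replicate 2 at 13.4 CPM, against 20.9 to 21.8 CPM, and Slc10a3 in replicate 3 at 1.299 CPM, against 5.48 to 5.73 CPM. The pseudogene Slc2a4rg-ps was at 0 in mature replicate 4 and between 1.84 and 2.17 CPM in the other mature libraries. Slc4a1ap was at 20.59 CPM in LP replicate 3, against 16.26 to 16.96 CPM. Of the 11 cases, 4 were in mature replicate 3, 2 in mature replicate 2 and 2 in mature replicate 4.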

How the results depend on the processing

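Members called higher in LP numbered 38 and ranged from 23 (without LP replicate 4) to 39 (without mature replicate 3) with each library left out in turn, and those called higher in mature cells numbered 24 and ranged from 17 to 27. With other tests, factors, filters and member limits the counts were 33 to 45 and 22 to 33, within 1.5 times of the main counts. Over all genes every alternative stayed within 1.5 times of 1394 higher in LP and 1767 in mature cells. All 62 called members kept their sign in every fit that tested them. With the replicate block, which rests on a shared replicate number, 37 members were called higher in LP and 26 in mature cells, 57 of the 62 calls remained, and 1388 and 1639 of all genes were called. Of the 8 libraries, 7 correlated best with the library of the same number in the other fraction, and mature replicate 2 did not, a hint from the data and not from the design. Signs turned only for members that were not called. With each library left out in turn, the log2 fold change ranged from -0.146 to 0.0143 for Slc39a7 (highest without mature replicate 1), from -0.206 to 0.105 for Slc29a1 (0.0059 without LP replicate 3), from -0.133 to 0.139 for Slc25a1 (-0.0122 without LP replicate 3 and -0.0017 without mature replicate 3), from -0.0232 to 0.249 for Slc9a3r2, and from -0.0528 to 0.590 for Slc35a2 (-0.0354 without LP replicate 4). The cause was not tested. Over the named members, 791 values stayed on their side of the threshold, 60 lost it and 12 gained it. Levels below about 1 CPM rest on few counts.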

Other observations

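Transporters outside the Slc names were called in both directions as well. Of 25 tested ABC transporters, 4 were higher in LP and 3 in mature cells (28%, beside 24.7% of all genes, median log2 fold change 0.46). The phospholipid exporter Abcb4 was at 55.4 ± 10.1 CPM (SD, n = 4) in LP against 160 ± 52.8 CPM (SD, n = 4) in mature libraries (log2 fold change -1.53, SE 0.26, edgeR adjusted p = 0.00231), and Abca5 had a log2 fold change of -2.30 (SE 0.42, edgeR adjusted p = 0.00351). The cholesterol exporter Abca1 was higher in LP (log2 fold change 1.02, edgeR adjusted p = 0.0128).

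Of 6 tested organic anion carriers named Slco, 1 was higher in LP and 1 in mature cells (33.3%, beside 24.7% of all genes). Slco1a5 was higher in LP, with 87.7, 97.0, 107 and 237 CPM against 14.9, 7.09, 52.3 and 43.8 CPM in mature libraries (log2 fold change 2.15, SE 0.56, edgeR adjusted p = 0.0173). Its close relative Slco1a6 was higher in mature cells, with 6.39, 5.18, 8.30 and 9.43 CPM against 18.4, 14.2, 28.2 and 45.96 CPM (log2 fold change -1.87, SE 0.40, edgeR adjusted p = 0.00765). These paralogues lie in 1 gene cluster and share sequence, so reads may be split between them. Of 18 tested Mfsd genes, 3 were higher in LP and 1 in mature cells (22.2%, beside 24.7% of all genes). Aqp5, the only aquaporin tested, was not called (log2 fold change -0.80, SE 0.29, edgeR adjusted p = 0.0716). Of the 15 partners and regulators of carriers, a list chosen with earlier results of these data known, 46.7% were called, beside 24.7% of all genes. Of these, 2 were higher in LP (Stk39 and the pyruvate carrier subunit Mpc1) and 5 in mature cells (Bsg, Heph, Mt1, Mt2 and Wnk4).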
